A study of Mus musculus with 3 samples.

Results

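A set of 9 genes of transforming growth factor beta (TGF-beta) signaling were followed across the cell types of mouse dorsal skin and 3 single-cell libraries. The set was fixed by gene name and held the 3 ligand genes Tgfb1, Tgfb2 and Tgfb3, the receptor genes Tgfbr1, Tgfbr2 and Tgfbr3, the latency protein gene Ltbp1, and the feedback genes Smad7 and Skil, which is 9 of the 32285 genes in the matrices. All mice were wild-type C57BL/6J animals. Their age is given as 8 weeks, which in the study's methods is the age at purchase, so they were older when skin was taken. CON was the untreated control. UV was irradiated every other day over 12 weeks with UVA (0.60 mW/cm2) together with UVB (3.5 mW/cm2). Rux received that irradiation, with 1.5% ruxolitinib ointment applied to the back right after each exposure. Ruxolitinib inhibits the kinases JAK1 and JAK2. Skin was taken a day after the last exposure, and the number of mice behind a library was not given in the sources used here. The study's scheme gives CON and UV the ointment base without the drug, which the labels do not mention. The labels call the mice female, yet over the retained cells the Y-linked gene Ddx3y was at 110, 115 and 121 UMIs (unique molecular identifiers, tags that each mark 1 captured transcript) per 1000000 (CPM) in CON, UV and Rux and Xist at 0.0922, 0.119 and 0.112 CPM, so all 3 libraries went against that label.

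TGF-beta ligands are secreted in a latent form, wrapped in their own propeptide, and LTBP1 ties that complex to the extracellular matrix until integrins or proteases release the active dimer. The active ligand binds the type II receptor, which recruits and phosphorylates the type I receptor, and the signal passes through SMAD2 and SMAD3 with SMAD4 into the nucleus. SMAD7 blocks the type I receptor and SnoN, the product of Skil, represses SMAD complexes on DNA, and both genes are themselves induced by the pathway. In skin the pathway is known for matrix production by dermal fibroblasts and for slowing the division of keratinocytes.

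The promoters of the members that passed 1.5-fold in fibroblasts are shown first, since those genes carry the comparisons further on. The RefSeq windows (GRCm38.p6) run from 250 bases before to 50 bases after a start site, are written 5′ to 3′ on the strand of the gene, and were found for 5 of the 9 members, in 7 windows. Entries for Tgfb3, Tgfbr3, Smad7 and Skil were not used here. Capitals mark matches, on either strand, to the SMAD-binding letters CAGACA, the AP-1 letters TGACTCA, the cAMP response element TGACGTCA and the E-box CACGTG.
Tgfb2 (chr1:186705940-186706239, minus strand): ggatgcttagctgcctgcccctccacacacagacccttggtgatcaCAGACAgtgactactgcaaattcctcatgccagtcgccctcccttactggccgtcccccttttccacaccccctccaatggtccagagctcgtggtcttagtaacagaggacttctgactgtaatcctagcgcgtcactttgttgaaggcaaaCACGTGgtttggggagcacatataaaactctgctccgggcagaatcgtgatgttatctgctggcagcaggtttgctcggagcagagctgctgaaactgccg
Ltbp1, upstream start (chr17:75005279-75005578, plus strand): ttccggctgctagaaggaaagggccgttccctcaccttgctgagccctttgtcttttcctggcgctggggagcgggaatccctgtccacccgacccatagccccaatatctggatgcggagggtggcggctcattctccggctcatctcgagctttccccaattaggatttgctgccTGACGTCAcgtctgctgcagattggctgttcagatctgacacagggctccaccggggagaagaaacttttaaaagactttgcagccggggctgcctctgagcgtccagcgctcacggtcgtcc
Ltbp1, downstream start (chr17:75178531-75178830, plus strand): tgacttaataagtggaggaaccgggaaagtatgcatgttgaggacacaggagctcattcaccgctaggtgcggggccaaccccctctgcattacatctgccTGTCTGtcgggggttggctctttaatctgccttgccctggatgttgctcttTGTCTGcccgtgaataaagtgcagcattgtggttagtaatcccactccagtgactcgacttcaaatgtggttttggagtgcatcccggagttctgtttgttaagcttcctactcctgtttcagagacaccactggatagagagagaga
Tgfb1 (chr7:25686752-25687051, plus strand): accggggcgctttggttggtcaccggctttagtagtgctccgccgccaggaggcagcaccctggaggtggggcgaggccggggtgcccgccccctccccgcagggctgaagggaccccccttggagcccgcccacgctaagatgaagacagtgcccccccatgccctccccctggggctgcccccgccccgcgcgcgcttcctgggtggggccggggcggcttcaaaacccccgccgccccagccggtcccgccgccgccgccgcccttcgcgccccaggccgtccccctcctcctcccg

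The Tgfb2 window held an E-box that began 51 bases before the start site and 1 SMAD match at 204 bases before it. The upstream Ltbp1 window held a cAMP response element 73 bases before the start, and the downstream window held 2 SMAD matches, at 149 and 98 bases before the start. The Tgfb1 window held none of the 4 motifs and 30 CG pairs, against a median of 7 over all 32851 windows. Of all windows, 21.0% held the SMAD letters, 5.20% the AP-1 letters, 1.79% the cAMP response element and 7.15% the E-box. These matches describe letters in short windows and are not mapped binding sites.

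Cells were clustered without the 9 members and named from marker genes, and each name carries "-like" because it rests on markers alone. After filtering and doublet removal the libraries held 10777, 10231 and 9299 cells, with medians of 7549, 7669 and 9438 UMIs per cell in CON, UV and Rux. The libraries shared 28 to 50 cell barcodes in each pair. Fibroblast (FB)-like cells made up 3292, 5093 and 4976 of them, with 22873122, 39318114 and 55756238 UMIs. Their markers were present in every library, with Dcn at 10667, 10166 and 9525 CPM and Pdgfra at 238, 240 and 319 CPM. The 9 other classes with at least 100 cells in each library were pericyte and smooth muscle (PCY), Schwann (SCH), lymphatic endothelial (LEC), vascular endothelial (VEC), myeloid (MYE), lymphoid (LYM), basal keratinocyte (KB), inner root sheath and hair shaft (HS) and other epithelial (EPI) cells. Clusters without a clear lineage stayed unnamed, with 1457, 1083 and 704 cells. Values below are given in the order CON, UV and Rux, as CPM of the summed UMIs of a class, unless stated otherwise. Each condition was 1 library, so no test across samples could be made, and every interval is a 95% interval that covers counting error only.

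Tgfb1, the ligand gene best known from immune and wound tissue (ENSMUSG00000002603, chromosome 7, 25687002 to 25705077), was highest in LEC-like cells at 541, 453 and 403 CPM. LYM-like cells followed at 417, 409 and 370 CPM, and the ranges of these leading classes overlapped. MYE-like cells had 318, 212 and 184 CPM, VEC-like cells 114, 195 and 197 CPM, and FB-like cells 45.7, 40.9 and 82.2 CPM. LEC-like and LYM-like cells were the highest compared classes in all 3 libraries, and the MYE-like level overlapped that of VEC-like cells. Among LYM-like cells, the cluster led by Icos and Ikzf3 had 300, 301 and 275 CPM. A smaller one had 605, 629 and 619 CPM, a split that was alike in the 3 libraries. Another LYM-like cluster, led by Trdc, had 539 CPM in CON, where it held 90 cells, against 2 in UV and 1 in Rux.

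Tgfb2 (ENSMUSG00000039239, chromosome 1, 186622792 to 186705989) was, among the compared classes, highest in FB-like cells, at 145, 245 and 209 CPM. The range of the next class, PCY-like cells at 68.5, 127 and 98.0 CPM, lay below it without overlap, and LEC-like cells had 84.2, 73.9 and 101 CPM. EPI-like cells had 26.1, 54.4 and 60.4 CPM. MYE-like cells, used here as a reference for free RNA, had 6.21, 3.44 and 2.47 CPM. After each cell was thinned to 2000 UMIs, 16.5%, 26.1% and 23.0% of FB-like cells held a Tgfb2 UMI (32.0%, 47.3% and 49.1% unthinned), against 0.781%, 0 and 0.950% of MYE-like cells, whose median depths of 6576, 7478 and 8921 UMIs were near the 6190, 7380 and 10003 UMIs of FB-like cells. In UV, 0 of 227 thinned MYE-like cells allowed a share of up to 1.61%. Muscle-progenitor (MP)-like cells had 350, 241 and 245 CPM in 134, 26 and 20 cells. An unnamed cluster led by Lingo2, described with Ltbp1 below, had 66.3, 161 and 259 CPM.

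Tgfb3 (ENSMUSG00000021253, chromosome 12, 86056745 to 86079041), a ligand gene whose locus overlaps Ttll5 on the other strand, was highest in PCY-like cells at 58.9, 87.2 and 103 CPM. LEC-like cells had 30.6, 48.1 and 54.6 CPM and FB-like cells 25.5, 21.2 and 18.5 CPM. These 3 classes did not overlap in range, so the order of PCY-like, LEC-like and FB-like cells was the same in every library. That order does not cover all cells with PCY markers. An unnamed cluster led by Rgs5 and Fabp4 scored highest for VEC and second for PCY markers. Its Tgfb3 level ran from 18.6 CPM in CON to 22.3 CPM in Rux, below LEC-like cells in every library. The level in FB-like cells was lower in UV and Rux than in CON by less than 1.5-fold.

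Tgfbr1, the type I receptor kinase (ENSMUSG00000007613, chromosome 4, 47353222 to 47414931), reached 486, 473 and 587 CPM in mast cell (MC)-like cells, of which there were 63, 172 and 211. Among the named classes, FB-like cells came next at 143, 121 and 105 CPM. Every other named class with at least 50 cells in each library was below them. The unnamed cluster led by Lingo2 had 268, 204 and 234 CPM. MC-like cells thus stood far above the rest of the named classes for this receptor, at median depths of only 950, 1254 and 1655 UMIs. The other classes ran from a mean of 38.1 CPM in SCH-like cells to 96.3 CPM in LEC-like cells, and all neighbours among them overlapped.

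Tgfbr2, the ligand-binding type II receptor (ENSMUSG00000032440, chromosome 9, 116084293 to 116175360), was about level in LYM-like cells at 451, 408 and 427 CPM and FB-like cells at 413, 405 and 441 CPM. SCH-like cells had 262, 321 and 443 CPM and LEC-like cells 212, 274 and 372 CPM, in both cases in the order CON, UV, Rux. HS-like cells had the lowest mean, with 40.3, 76.8 and 57.3 CPM. Tgfbr3, which encodes betaglycan, a co-receptor that presents TGF-beta2 to the type II receptor (ENSMUSG00000029287, chromosome 5, 107106570 to 107289629), was highest in FB-like cells at 640, 649 and 820 CPM. SCH-like cells followed without overlap at 413, 611 and 582 CPM, then VEC-like cells at 347, 265 and 249 CPM. HS-like cells, with 9.98, 13.7 and 12.6 CPM, and MYE-like cells, with 30.5, 16.7 and 18.7 CPM, were lowest.

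Ltbp1, the latent TGF-beta binding protein gene (ENSMUSG00000001870, chromosome 17, 75005568 to 75392512), was at 184, 378 and 306 CPM in FB-like and 211, 247 and 193 CPM in PCY-like cells, ranges that overlapped. MYE-like cells had 8.28, 7.87 and 5.92 CPM. Its highest levels lay outside the compared classes. MP-like cells had 806, 991 and 666 CPM. The unnamed cluster led by Lingo2, Dcc, Adgrb3 and Gpc5, with 243, 256 and 92 cells, had 1553, 1309 and 1245 CPM. That cluster scored highest for PCY and second for FB markers without a clear lead for either, so no lineage is given to it.

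Smad7, the inhibitory SMAD (ENSMUSG00000025880), was highest in LYM-like and MC-like cells. They had 408, 321 and 355 CPM and 285, 285 and 396 CPM, ranges that overlapped. The LYM-like cluster led by Trdc, with 90, 2 and 1 cells, had 664 CPM in CON. Without it the log2 ratio of UV over CON in LYM-like cells was 0.20 in place of −0.35. The endothelial classes followed, with 259, 229 and 204 CPM in LEC-like and 186, 249 and 243 CPM in VEC-like cells, and FB-like cells had 139, 156 and 209 CPM. MYE-like cells had 19.7, 31.0 and 44.4 CPM. The unnamed cluster led by Lingo2 was again high, with 532, 362 and 373 CPM. Skil, which encodes the co-repressor SnoN (ENSMUSG00000027660, chromosome 3, 31095058 to 31122577), had the smallest ratio between its highest and lowest class mean among the 9 members, from 260, 261 and 283 CPM in FB-like cells to 64.3, 72.4 and 83.5 CPM in SCH-like cells, and each class overlapped with the next in the order.

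**Figure D1:**
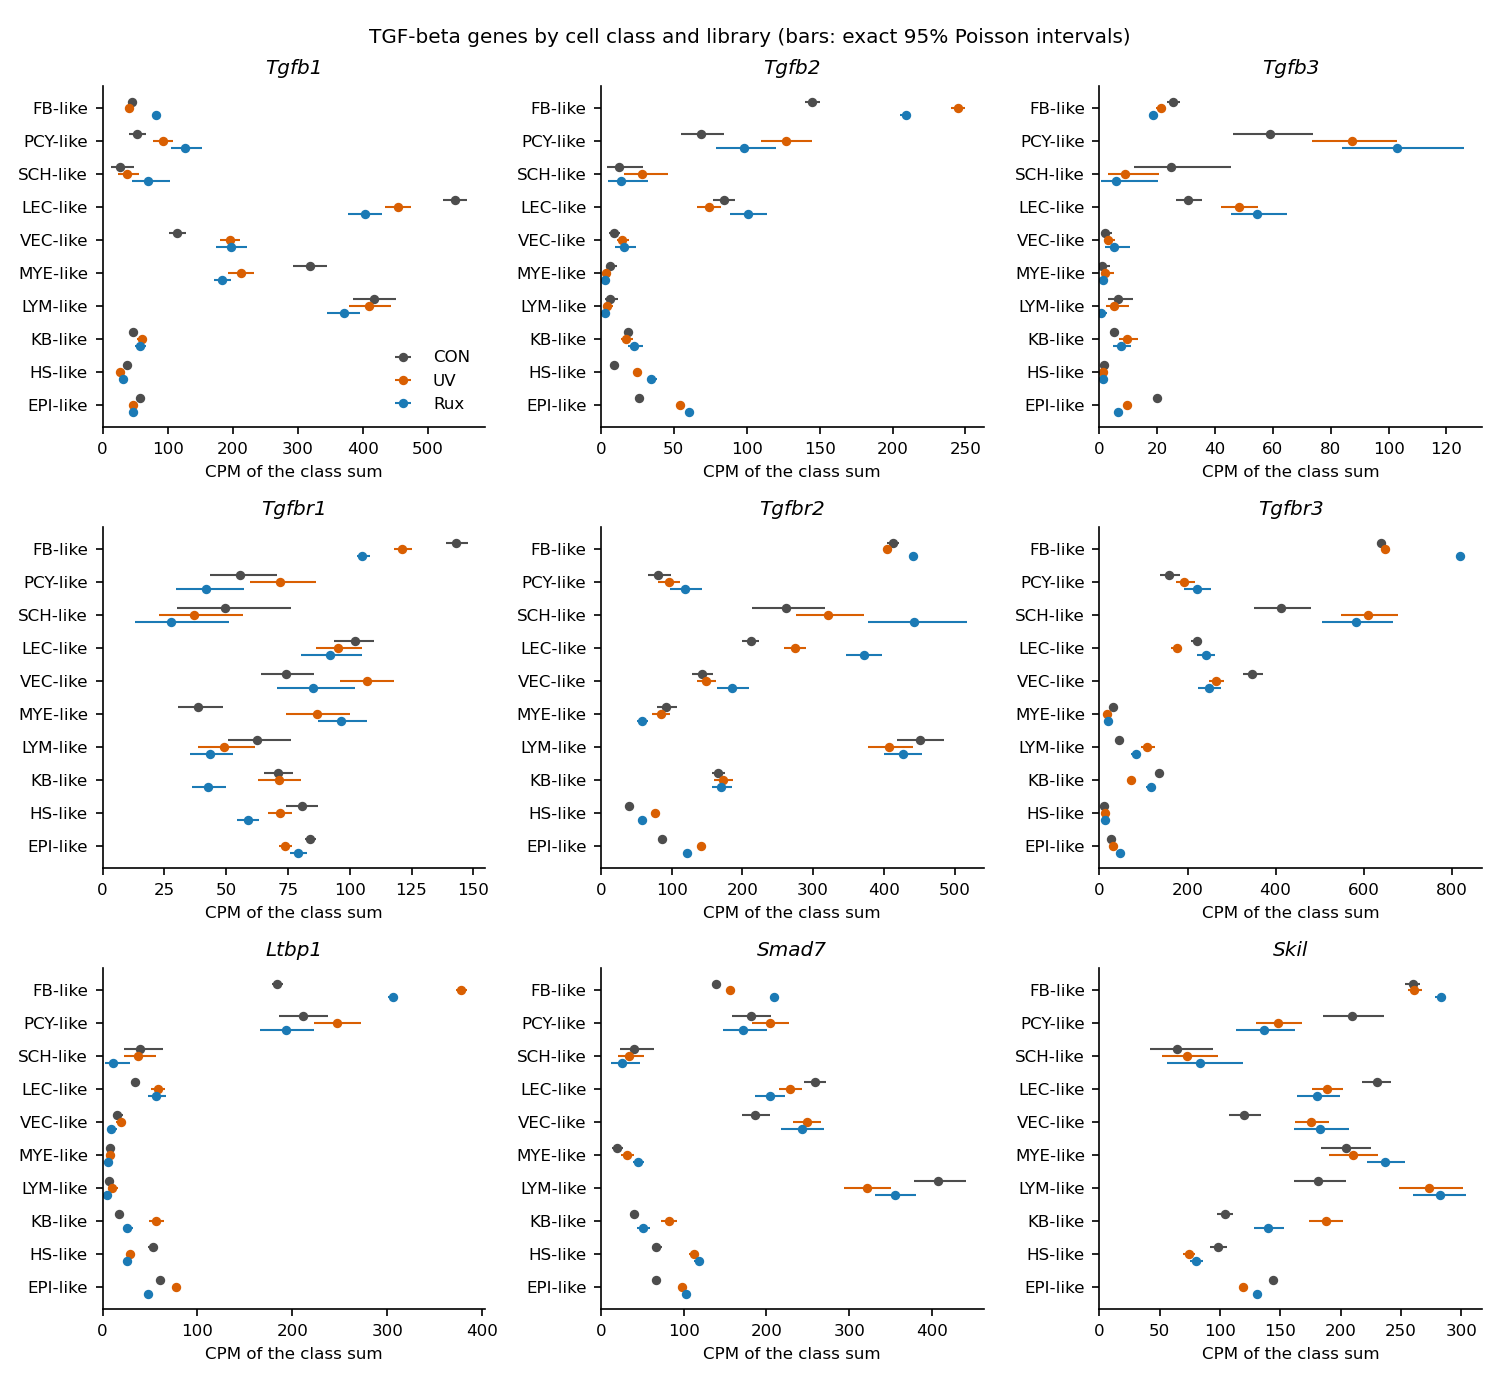
Each panel shows 1 gene, with CPM of the class sum on the x axis, the 10 compared cell classes on the y axis, points for CON, UV and Rux and bars for exact 95% Poisson intervals. Tgfb1 points lie farthest right in LEC-like and LYM-like cells, Tgfb2, Tgfbr1 and Tgfbr3 points in FB-like cells, and Tgfb3 points in PCY-like cells.

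The next comparison asked which of these genes differed after chronic irradiation (UV over CON) and with ruxolitinib during irradiation (Rux over UV). Both comparisons use the UV library. A member was counted when its class sums differed by at least 1.5-fold, provided that both libraries together held 100 or more of its UMIs and its mean reached 10 CPM. In FB-like cells 2 of the 9 members differed in UV over CON, both upward, where 13.7% of all 8360 genes passed the same fold. Between UV and Rux 1 of 9 differed, where 8.49% of 8158 genes did. Over the other 9 classes, 20 of 63 gene-by-class values passed in UV over CON, 17 upward and 3 downward, which is 31.7% against a background of 14.0% of gene-by-class values. For Rux over UV 6 of 62 passed, 1 upward and 5 downward, or 9.68% against a background of 8.72%. The values of UV over CON past the fold lay in 8 of the 9 other classes, all but SCH-like cells.

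**Figure D2:**
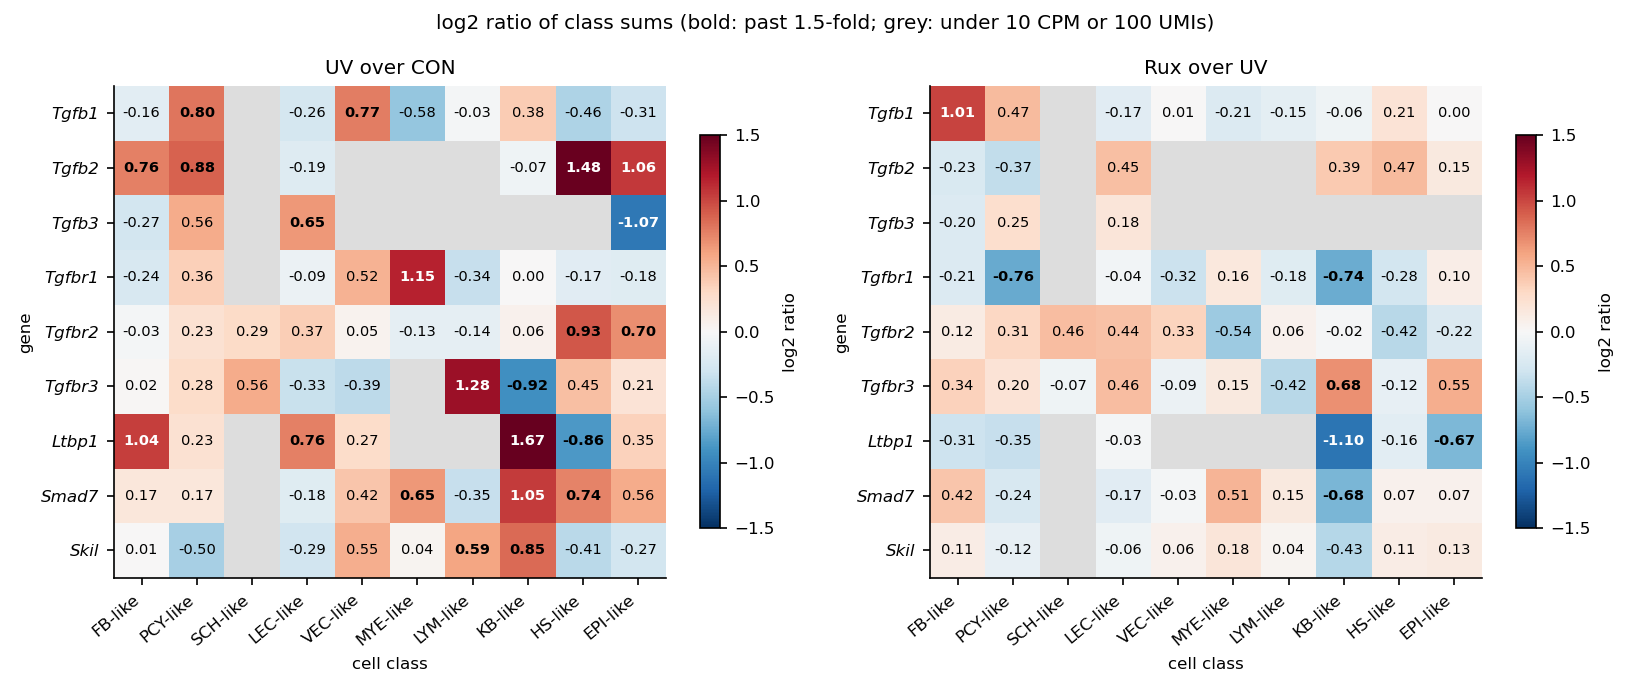
Rows are the 9 genes and columns the 10 compared classes, with the log2 ratio printed and coloured (red higher, blue lower in the first library), bold past 1.5-fold and grey below the minimum of 10 CPM and 100 UMIs. The left panel holds 22 bold values, 2 of them in FB-like cells, and the right panel 7.

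Tgfb2 and Ltbp1 were higher in the UV fibroblasts. Tgfb2 was 145, 245 and 209 CPM, 1.69-fold higher in UV than in CON with a log2 ratio of 0.76 (0.70 to 0.82). Ltbp1 was 184, 378 and 306 CPM, 2.05-fold higher in UV than in CON, with a log2 ratio of 1.04 (0.99 to 1.09). Their log2 ratios of Rux over UV were −0.23 and −0.31, below 1.5-fold, so both levels in Rux lay between those of CON and UV. Neither call held with subclusters weighted as in CON, where the log2 ratios of UV over CON were 0.47 for Tgfb2 and 0.25 for Ltbp1. Subclusters were drawn from expression over all libraries together. A different mix of fibroblast states and a change within a state therefore cannot be told apart by this weighting. For Rux over UV the ratio of Ltbp1 was 0.29 with that weighting, which places 31.5% of the weight on a subcluster with 12 Rux cells, and −0.07 over the subclusters with at least 50 cells in both libraries, weighted as in UV. The share of cells with an Ltbp1 UMI after thinning was 24.0%, 34.7% and 31.1%, against 1.95%, 2.20% and 1.43% in MYE-like cells.

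Tgfb1 was the member that differed with ruxolitinib in FB-like cells. Its level of 82.2 CPM in Rux was 2.01-fold the 40.9 CPM in UV, a log2 ratio of 1.01 (0.93 to 1.09), and also above the 45.7 CPM in CON. After thinning, 7.60%, 6.70% and 12.8% of FB-like cells held a Tgfb1 UMI (20.2%, 18.4% and 38.9% unthinned). With subclusters weighted as in CON the log2 ratio was 0.38, again with 31.5% of the weight on 12 Rux cells; over subclusters with at least 50 cells in both libraries, weighted as in UV, it was 0.70. In FB-like cells the 9 MYE markers summed to 39.0, 21.1 and 24.7 CPM and the 7 LYM markers to 4.07, 1.53 and 2.13 CPM, both of them highest in CON. The 7 MC markers summed to 6.91, 22.5 and 18.7 CPM. Other markers were highest in Rux or higher there than in UV, with 4.07, 3.59 and 21.0 CPM for 6 neutrophil markers, 53.6, 63.2 and 142 CPM for 5 red cell markers and 242, 159 and 231 CPM for 7 PCY markers. Their part in the result was not tested. The 7 LEC markers summed to 372, 508 and 503 CPM, of which Pdpn, a gene that fibroblasts use too, made up 349, 494 and 493 CPM.

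The 6 remaining members stayed under 1.5-fold in FB-like cells in both comparisons. Between UV and Rux Smad7 had a log2 ratio of 0.42 (0.38 to 0.47) and Tgfbr3 of 0.34 (0.32 to 0.36), the co-receptor going from 649 to 820 CPM. Tgfbr2, at 0.12, and Skil, at 0.11, were close to the median of all genes, 0.03. Tgfbr1 and Tgfb3 lay at −0.21 and −0.20, and in UV over CON at −0.24 and −0.27, so both had their lowest level in Rux and their highest in CON. With subclusters weighted as in CON, the ratio of Tgfbr1 in UV over CON turned to 0.04. For Tgfb3 in Rux over UV it was −0.68, which rests in part on the same 12 Rux cells and lies outside the −0.57 to 0.33 of the 12 subclusters compared, and −0.04 over the subclusters with at least 50 cells.

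Outside fibroblasts, Tgfb2 was higher in UV than in CON in PCY-like, EPI-like and HS-like cells, with log2 ratios of 0.88 (0.52 to 1.27), 1.06 (0.97 to 1.16) and 1.48 (1.10 to 1.89). In KB-like cells it was 18.4, 17.4 and 22.9 CPM and in LEC-like cells the log2 ratio was −0.19, or −0.62 with equal weight per cell. The 3 HS-like clusters were each higher in UV than in CON, with 10.4 and 30.1, 2.13 and 26.5, and 8.49 and 12.8 CPM. The 2.13 CPM rested on 2 UMIs, and the last pair, on 15 and 36 UMIs, had overlapping intervals. Of the EPI-like clusters, the one led by Wfdc18 went from 24.8 to 9.36 CPM. One of 52 CON and 57 UV cells went from 57.1 to 39.3 CPM. The other EPI-like clusters were higher in UV, such as that led by Itga2 and Kcnk10, at 37.0 and 75.4 CPM. One of them rested on 1 UMI in 7 CON cells, and another, at 20.2 and 24.2 CPM, had overlapping intervals. FB markers summed to 558, 841 and 702 CPM in EPI-like cells, and their part in the result was not tested. In none of the 6 classes with enough UMIs did Tgfb2 pass 1.5-fold in Rux over UV, although LEC-like and HS-like cells reached 0.76 and 0.65 with equal weight per cell.

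Tgfb1 was higher in UV than in CON in VEC-like cells, by 0.77 (0.57 to 0.98) on the log2 scale, and in PCY-like cells, by 0.80 (0.38 to 1.25). This did not extend to LEC-like cells, which were lower in UV, at −0.26 (−0.34 to −0.18). The unnamed cluster led by Rgs5 and Fabp4 differed little between CON and UV, at 0.16 (−0.10 to 0.43). Tgfb1 there was 200, 223 and 254 CPM, in 76, 176 and 62 cells. The VEC-like cluster led by Adgrl4 had 160, 223 and 235 CPM in 227, 384 and 127 cells, which is under 1.5-fold between CON and UV, and the one led by Cytl1 had 65.7, 110 and 129 CPM in 179, 90 and 54 cells. The share of the cluster with more Tgfb1 was thus larger in UV than in CON. Red cell markers summed to 28.0, 1109 and 284 CPM and PCY markers to 149, 380 and 386 CPM in VEC-like cells. In PCY-like cells VEC markers summed to 111, 245 and 211 CPM, and of their own markers Rgs5 was 1523, 3069 and 4005 CPM and Acta2 5227, 4789 and 4275 CPM. The part of these shifts in the result was not tested. In MYE-like cells Tgfb1 had a log2 ratio of −0.58, just short of 1.5-fold, or −0.67 under the strict filter on cells, and the larger cluster, led by Lyz2, had 381, 273 and 189 CPM.

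Tgfb3 was lower in UV than in CON in EPI-like cells, from 19.9 to 9.46 CPM with 6.51 CPM in Rux, a log2 ratio of −1.07 (−1.25 to −0.90). An epithelial cluster led by Adamts19 and Hsd11b2, with 50.3, 37.9 and 26.7 CPM, held 854 of the 1304 Tgfb3 UMIs of EPI-like cells in CON and 186 of 347 in UV, but 55 of 174 in Rux. The number of its cells, 664, 236 and 117, moved with the level. Tgfb3 was also lower in UV within the cluster led by Itga2 and Kcnk10, at 7.23, 2.42 and 2.45 CPM. Within the one led by Ung it was 11.5, 4.19 and 1.61 CPM. A cluster of 505, 234 and 203 cells went the other way, at 7.78, 9.57 and 10.7 CPM. In LEC-like cells Tgfb3 was higher in UV by 0.65 (0.36 to 0.94), a value that was 0.53 without doublet removal.

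Among the receptors, Tgfbr1 was higher in UV in MYE-like cells, at 38.8, 86.6 and 96.6 CPM, with a log2 ratio of 1.15 (0.76 to 1.57). Both MYE-like clusters had it, at 46.7, 97.2 and 104 CPM and at 22.4, 69.5 and 63.8 CPM. In Rux Tgfbr1 was lower than in UV in KB-like cells, with a log2 ratio of −0.74 (−1.04 to −0.44), and in PCY-like cells, with −0.76 (−1.34 to −0.24), the latter −0.54 with equal weight per cell. Tgfbr2 was higher in UV in HS-like cells by 0.93 (0.74 to 1.12) and in EPI-like cells by 0.70 (0.65 to 0.76). Tgfbr3 was higher in LYM-like cells, at 44.9, 109 and 82.1 CPM with a log2 ratio of 1.28 (0.88 to 1.71), and lower in KB-like cells, at 136, 72.0 and 116 CPM. Without the LYM-like cluster led by Trdc, which held 90, 2 and 1 cells, the log2 ratio of Tgfbr3 in LYM-like cells was 1.00.

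The KB-like values need the clusters behind them. In CON 474 of 554 KB-like cells belonged to a cluster led by Il20ra and Fcgbp, which held 26 UV and 76 Rux cells, while the other cluster, led by Cstdc5 and Stfa3, held 80, 80 and 54. Ltbp1 was 17.8, 56.6 and 26.3 CPM in KB-like cells. Its log2 ratio of 1.67 (1.36 to 1.99) in UV over CON was the highest of any member and class with enough UMIs. Within the second cluster it was 50.3, 57.5 and 35.9 CPM, and within the first 9.88, 52.3 and 14.1 CPM. Skil, at 104, 188 and 140 CPM, was higher in UV than in CON in both clusters, with 103 and 202 CPM in the first and 106 and 184 CPM in the second. Smad7, at 39.6, 81.8 and 51.2 CPM, was 32.1 and 68.7 CPM in the first and 70.7 and 84.8 CPM in the second. Ltbp1, Smad7 and Tgfbr1 were lower in Rux than in UV past 1.5-fold and Tgfbr3 was higher by 0.68, a value that was 0.44 with equal weight per cell. Hair follicle markers summed to 694, 1462 and 705 CPM and FB markers to 598, 190 and 420 CPM in KB-like cells. Suprabasal keratinocyte markers summed to 1401, 2066 and 2792 CPM there. Of their own markers, Krt15 was 3212, 1004 and 781 CPM, Col17a1 1444, 743 and 953 CPM and Trp63 438, 217 and 234 CPM. Krt14 went the other way, at 10068, 11415 and 13989 CPM. The cells under this name thus differed between libraries, and the part of these shifts in the results was not tested.

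Ltbp1 was also higher in UV in LEC-like cells by 0.76 (0.49 to 1.03), which became 0.20 with equal weight per cell, and lower in HS-like cells, with a log2 ratio of −0.86 (−1.07 to −0.65) that became −0.57 without doublet removal. All 3 HS-like clusters were lower in UV than in CON, at 38.5 and 22.5, 50.1 and 29.3, and 93.9 and 42.7 CPM. In EPI-like cells Ltbp1 was lower in Rux than in UV, with a log2 ratio of −0.67 (−0.77 to −0.58). Its clusters differed in this: the cluster led by Itga2 and Kcnk10 had 92.6 CPM in UV and 67.6 CPM in Rux, under 1.5-fold. The one led by Ung had 45.8 and 50.7 CPM. The cluster led by Adamts19 and Hsd11b2 had 111 and 56.7 CPM, and 1 of 234 UV and 203 Rux cells had 82.3 and 54.9 CPM. The clusters led by Wfdc18 and by Kcnb2, with 22.7 and 18.1 CPM in Rux, held 97 and 43 UV cells but 183 and 140 Rux cells. The log2 ratio of Ltbp1 in Rux over UV was below 0 in all 6 classes with enough UMIs, from −1.10 to −0.03. The interval held 0 in LEC-like cells, at −0.03 (−0.34 to 0.28), and in HS-like cells, at −0.16 (−0.39 to 0.07). The sign in FB-like cells depended on the subcluster weighting, as given above. Smad7 was higher in UV in HS-like cells by 0.74 (0.59 to 0.89) and in MYE-like cells by 0.65 (0.05 to 1.28), the latter on 63 and 38 UMIs and 0.40 under the strict filter on cells. Skil was higher in LYM-like cells by 0.59 (0.37 to 0.81), which became 0.28 without the cluster led by Trdc.

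Within FB-like cells, 14 subclusters were drawn without the members, and their shares differed widely between libraries. A subcluster led by Socs3, Gadd45g and Irf1, genes of an acute stress response, held 31.5%, 5.50% and 0.241% of FB-like cells. A subcluster led by Dtna and Limch1 held 4.04%, 19.6% and 8.70%, and 1 led by the acute-phase genes Saa3 and Hp held 0, 0.393% and 8.22%. With 0 of 3292 cells, CON allowed a share of up to 0.112% for the last. Members were therefore compared subcluster by subcluster, over the 12 with at least 50 cells in both libraries.

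Ltbp1 was highest in the subcluster led by Dtna, at 456, 930 and 779 CPM, and in 1 of 58, 103 and 77 cells led by Gm17268 and Sema3e, at 434, 982 and 599 CPM. In the stress-gene subcluster that made up 31.5% of CON fibroblasts it was 102 and 87.4 CPM in CON and UV. The Dtna subcluster, high in Ltbp1, was rare in CON and common in UV, and the state most common in CON was low. The subcluster led by Grem1 and Igfbp2 went the other way. It held 10.9%, 1.22% and 5.33% of FB-like cells, with Ltbp1 at 395, 323 and 574 CPM. The Gm17268 subcluster held 1.76%, 2.02% and 1.55% of FB-like cells. Within subclusters the log2 ratio of UV over CON was above 0 in 9 of 12 and ran from −0.47 to 2.13.

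Tgfb2 was higher in UV in 10 of 12 subclusters, from −0.58 to 1.37 on the log2 scale. In the Dtna subcluster it was 157, 331 and 230 CPM. In the subcluster led by G530011O06Rik and Thbs1, whose protein can activate latent TGF-beta, it was highest in CON and UV and went the other way, at 560, 375 and 368 CPM in 79, 613 and 533 cells. Against UV, its Rux level was lower in 9 of 12.

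Tgfb1 was higher in Rux than in UV in all 12 subclusters compared, by 0.18 to 1.18. Its highest levels were in the subcluster led by Coch and Adgrl3, at 217, 182 and 220 CPM in 42, 104 and 68 cells, and in the 1 led by Ednrb, Acta2 and Acan, at 109, 153 and 200 CPM. The latter held 3.04%, 3.79% and 7.66% of FB-like cells. In the Saa3 subcluster, mostly of Rux cells, Tgfb1 was 65.2 CPM in Rux. Tgfbr3 and Smad7 were likewise above 0 in 12 of 12, by 0.32 to 1.05 and 0.04 to 0.88. For Tgfb1 and Smad7 some of the intervals held 0, among them those of the lowest values, 0.18 (−0.50 to 0.87) and 0.04 (−0.12 to 0.21). The share of all genes above 0 in all 12 is not given. Subclusters of 1 library share its cells and depth and are not replicates.

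**Figure D3:**
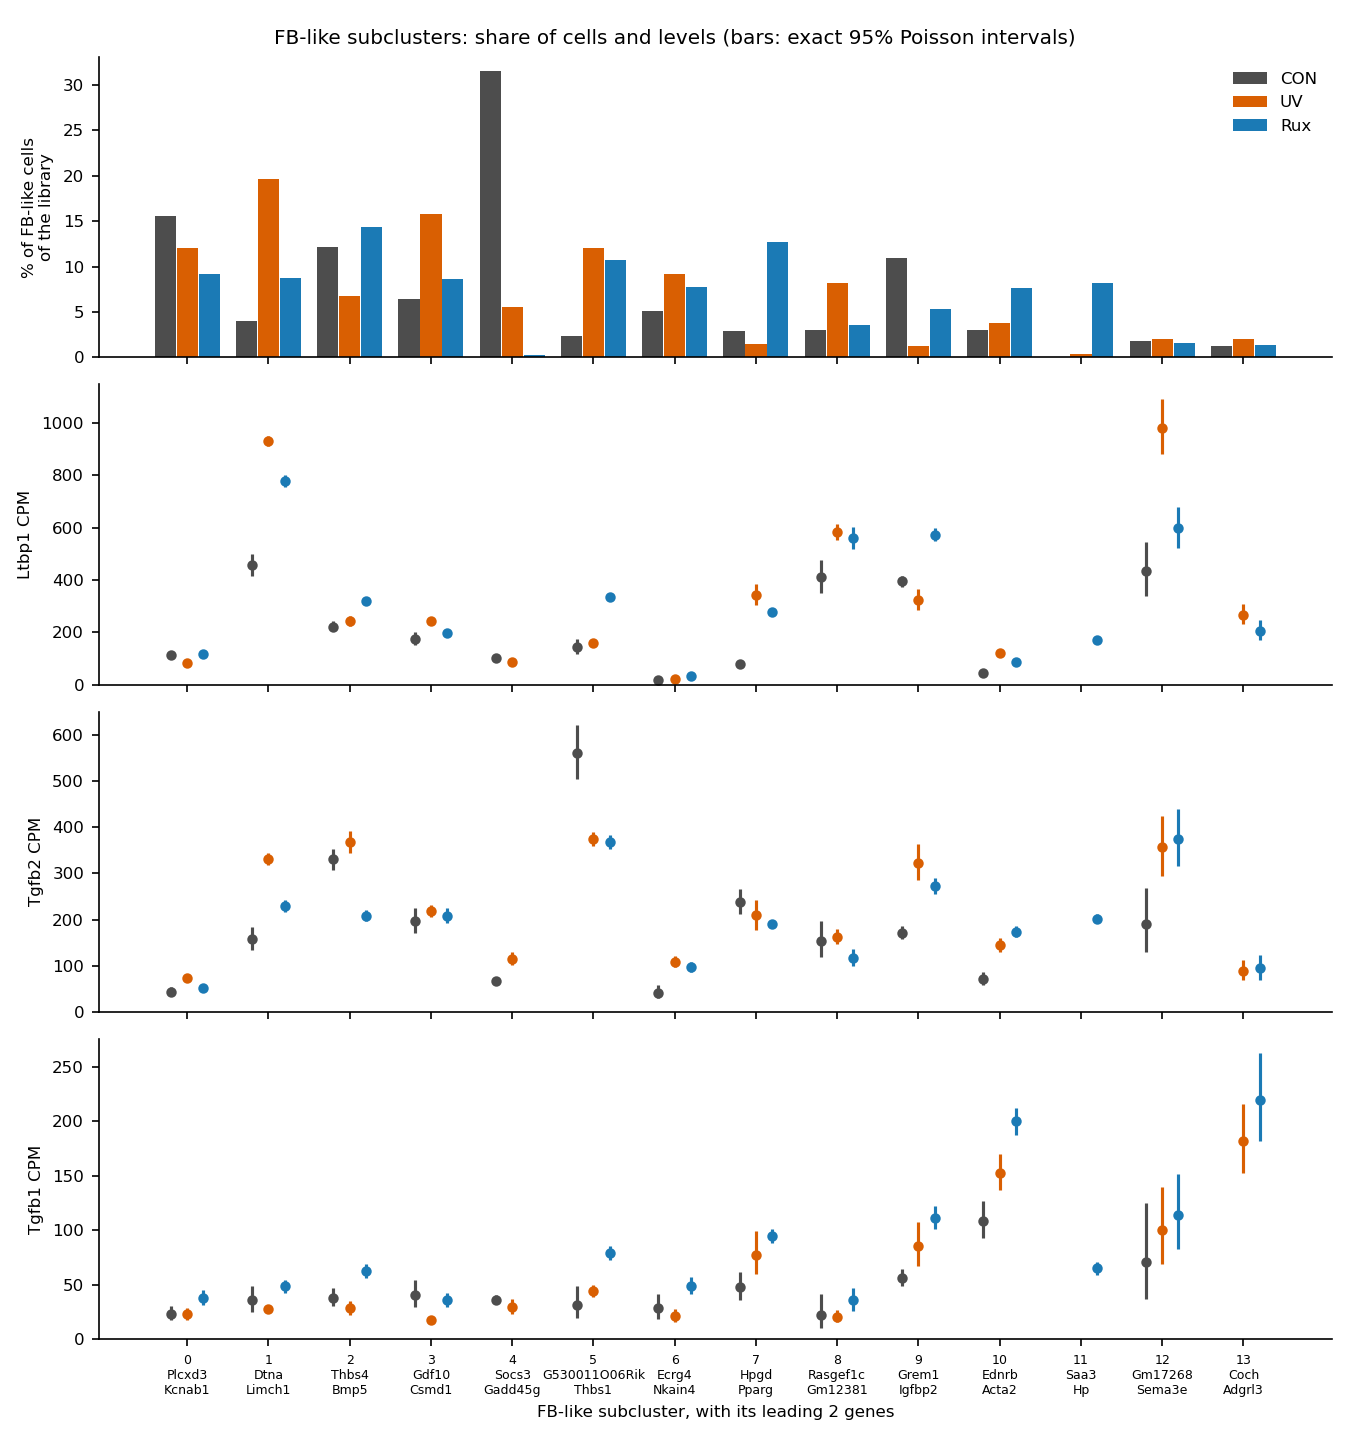
The top panel gives the percent of FB-like cells of each library in 14 subclusters, and the lower panels CPM of Ltbp1, Tgfb2 and Tgfb1 in subclusters with at least 50 cells, with exact 95% Poisson intervals. The CON bar is tallest at subcluster 4, where Ltbp1 is low, the UV bar at subcluster 1, where Ltbp1 is high, and Rux points of Tgfb1 lie above UV points throughout.

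The other genes of the pathway were read from 5 lists in FB-like cells. Apart from the target list, no values with weighted subclusters are given for them. Among 9 genes of latency and activation, 6 had enough UMIs. In UV over CON the integrin subunit Itgav, which binds and helps release latent TGF-beta, was higher at 419 against 217 CPM (log2 ratio 0.95). Ltbp4, another latent-complex protein of elastic fibers, was lower at 128 against 275 CPM (−1.10), opposite to Ltbp1. Between UV and Rux none of the 6 passed 1.5-fold, and Ltbp4 was 154 CPM in Rux.

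Of the 4 co-receptor and decoy genes, 3 were lower in UV than in CON past 1.5-fold, where 645 of all 8360 genes were. Cd109, an inhibitory co-receptor, was 78.3, 34.0 and 47.2 CPM, the endothelial co-receptor gene Eng 75.0, 42.5 and 45.1 CPM, and Bambi, a decoy without a kinase domain, 26.3, 13.8 and 8.14 CPM. Bambi was also lower in Rux than in UV, at −0.76 (−0.95 to −0.58). The fourth, Acvrl1, a type I receptor, had log2 ratios of −0.10 and −0.51. The signal carriers Smad2, Smad3 and Smad4 stayed within −0.16 to 0.23 in UV over CON and −0.05 to 0.27 in Rux over UV.

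Of 8 feedback and co-repressor genes, Smurf1, a ubiquitin ligase for the receptors, was higher in UV than in CON at 113 against 64.5 CPM (log2 ratio 0.81), and the co-repressor gene Tgif2 was higher in Rux than in UV at 16.1 against 10.1 CPM (0.66). The list median was 0.28 in UV over CON, where all genes had −0.10, and 0.25 in Rux over UV, where all genes had 0.03.

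Under either subcluster weighting, 4 of the 16 target genes were higher in UV than in CON past 1.5-fold and none was lower past it. Unweighted they split, with 3 higher and 4 lower past 1.5-fold, where 503 and 645 of all 8360 genes were. No share of all genes is given beside the weighted counts, so a rise particular to the targets is not shown. In the unweighted sums the genes past the fold were as follows. Higher were Postn at 334 against 171 CPM (0.97), Tnc at 153 against 87.9 CPM (0.80) and Fn1 at 1592 against 1047 CPM (0.60), all matrix glycoproteins. Lower were the contractile genes Acta2 (−0.90) and Tagln (−0.62), the collagen gene Col1a1 at 4227 against 7680 CPM (−0.86) and Ccn2, a matricellular growth factor gene (−0.76). The median was −0.06, near the −0.10 of all genes.

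Between UV and Rux 7 of the 16 targets were higher in Rux past 1.5-fold and none was lower, where 8.49% of all genes passed the fold and 277 of 8158 did so upward. This count depended on how subclusters were weighted. With subclusters weighted as in CON 1 target was higher and 4 were lower. With those of at least 50 cells weighted as in UV 2 were higher and 4 lower. The higher ones included Ccn2 under both weightings, and the 4 lower ones were Col1a1, Col1a2, Col3a1 and Tnc. Postn was 171, 334 and 896 CPM, the highest ratio of the list at 1.43 (1.40 to 1.45). Ccn2 was 185, 110 and 201 CPM and Acta2 123, 65.7 and 109 CPM, so both stood near their CON level in Rux. Tagln, Tnc and Cthrc1 had ratios of 0.64, 0.67 and 0.64, and Col1a1 of −0.01. The median was 0.40 against 0.03 for all genes. It was −0.18 with subclusters weighted as in CON and −0.05 with those of at least 50 cells weighted as in UV. The sign of the target median thus changed too. No median or share of all genes under these weightings is given beside it, so a change particular to the targets is not shown. PCY markers, which include Acta2, summed to 242, 159 and 231 CPM in FB-like cells; their part in the result was not tested.

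**Figure D4:**
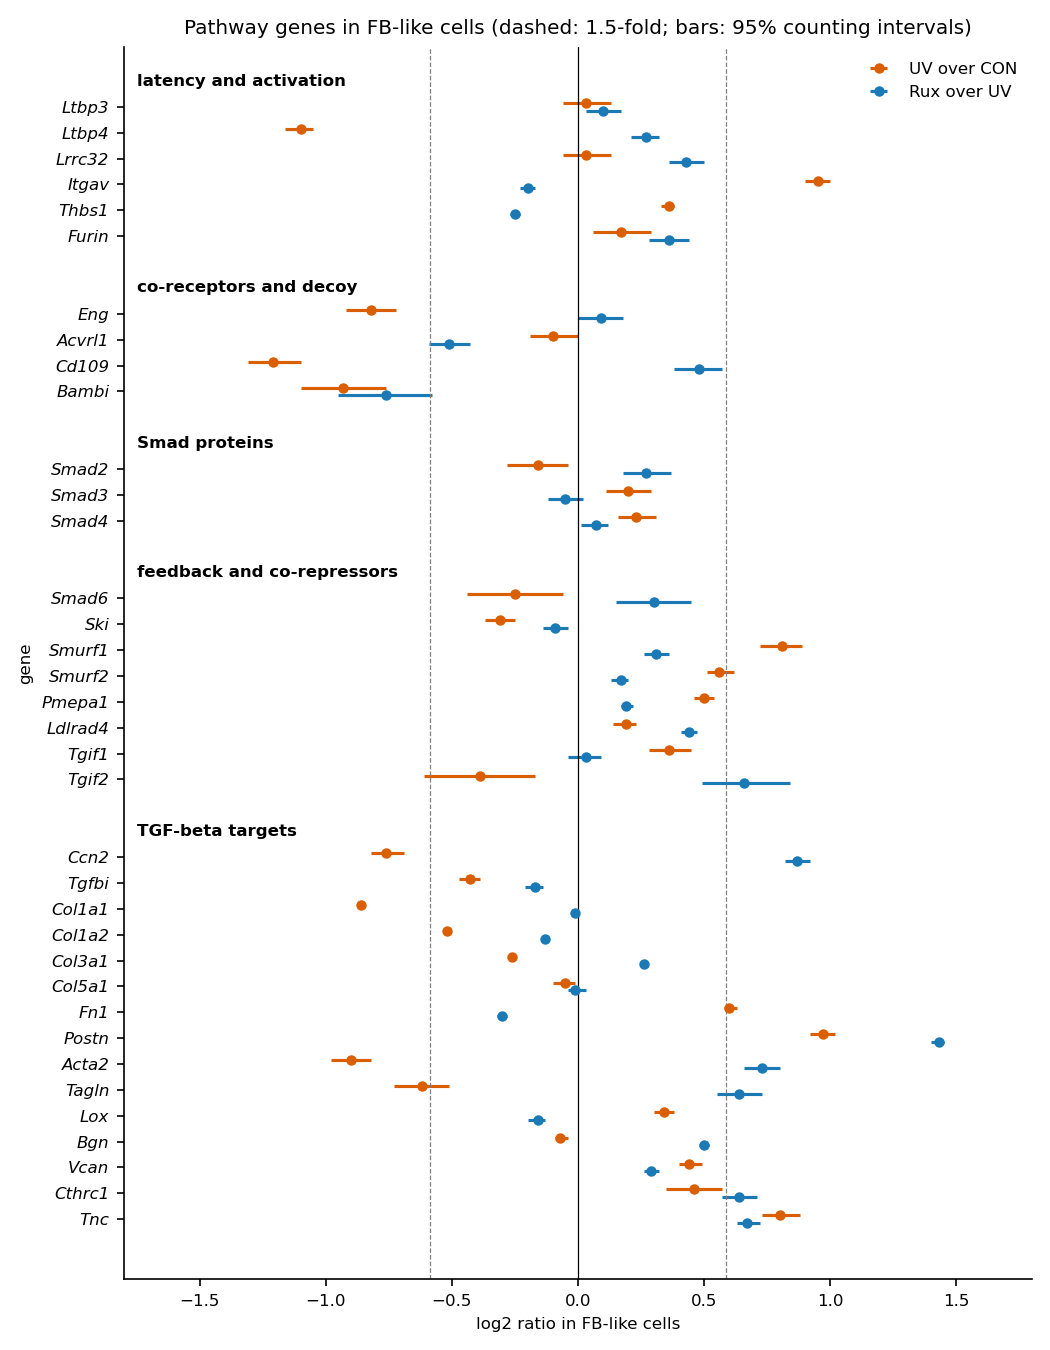
Points give the log2 ratio (x axis) of pathway genes with enough UMIs (y axis, grouped by list) in FB-like cells, orange for UV over CON and blue for Rux over UV, with 95% counting intervals and dashed lines at 1.5-fold. The blue point of Postn lies farthest right, and orange points of Cd109 and Ltbp4 farthest left.

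Over all retained cells, which follow the cell mix, Tgfb1 was nearly level at 80.2, 75.4 and 86.7 CPM, with log2 ratios of −0.09 and 0.20. The cells that held its UMIs differed more. EPI-like cells held 33.6% and LEC-like cells 29.7% of Tgfb1 UMIs in CON, against 9.25% in FB-like cells, while in Rux FB-like cells held 45.7%. Tgfb2 was 48.1, 116 and 126 CPM, and its log2 ratio of 1.27 in UV over CON was 0.70 with classes weighted as in CON. Tgfbr3 was 167, 276 and 442 CPM, and its ratio of 0.73 in UV over CON became 0.05 with that weighting. FB-like cells made up 30.5%, 49.8% and 53.5% of the cells of the libraries. The weighting goes by cells, whereas the plain sums go by UMIs. It therefore moved the Tgfbr3 level of CON itself, to 282 CPM, and does not isolate the cell mix. Fewer cells of a type and less RNA per cell cannot be told apart in the plain sums.

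For Ltbp1 the unnamed cluster led by Lingo2 held 45.0%, 22.9% and 7.08% of all UMIs, and FB-like cells 22.7%, 57.9% and 80.8%. In that cluster Ltbp1 was lower in UV than in CON, with a log2 ratio of −0.25 (−0.29 to −0.20), whereas Tgfb1 and Tgfb2 were higher there by 1.27 (1.02 to 1.53) and 1.28 (1.09 to 1.47). Smad7 in that cluster had a log2 ratio of −0.55 (−0.64 to −0.47). The cluster thus differed from FB-like cells in the direction of Ltbp1 and shared that of Tgfb2, each on 1 library a side.

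**Figure D5:**
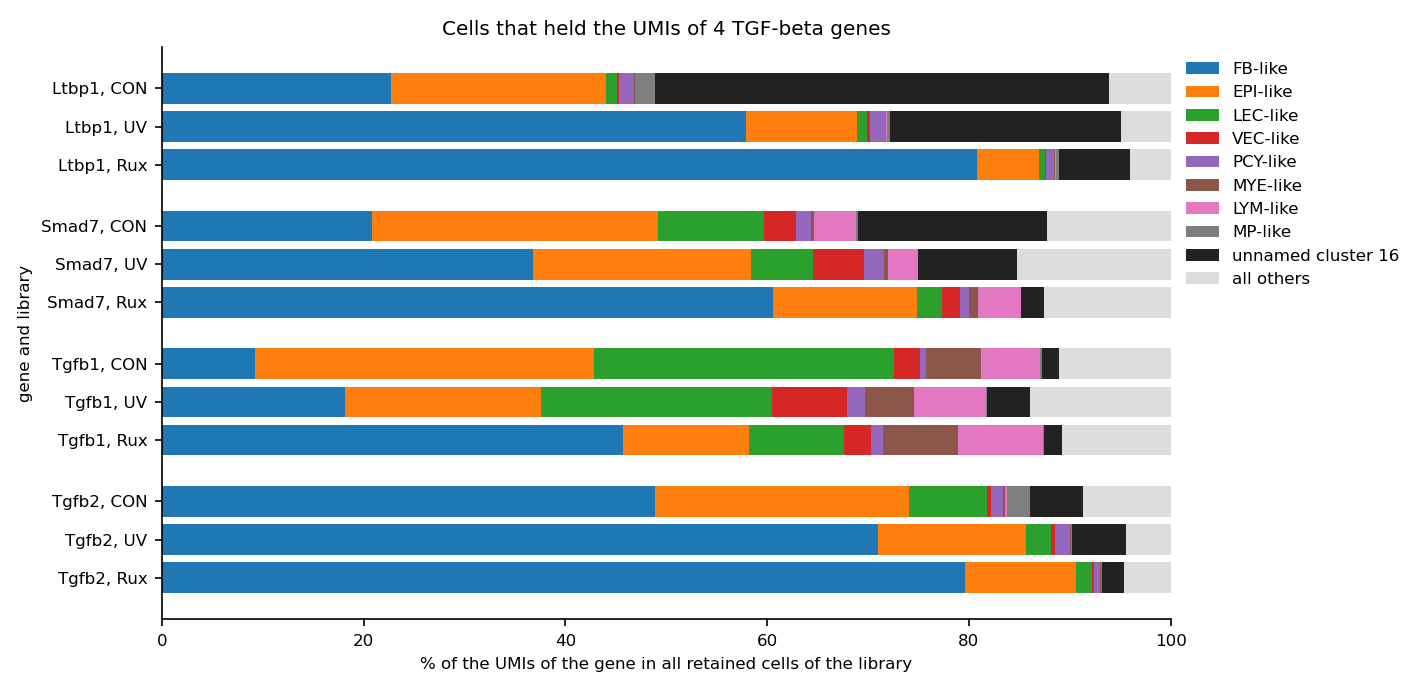
Each bar splits the UMIs of 1 gene in all retained cells of 1 library (x axis, percent) by cell class, for Ltbp1, Smad7, Tgfb1 and Tgfb2. The black segment, the unnamed cluster led by Lingo2, shrinks from 45.0% to 7.08% for Ltbp1, and the FB-like segment is widest in Rux for all 4 genes.

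The genes most like each member were found over 41 class-by-library sums, which share libraries and depth, among 7199 genes, by Pearson correlation of log2(CPM + 1). For Ltbp1 they were Gpc6 (r = 0.803) and Tgfb2 (0.797), another member, whose own list does not hold Ltbp1. Skil paired with Tgif1 (0.816), another co-repressor gene of the pathway, and Pxk (0.788). Tgfbr2 paired with Itgav (0.769), which is on the activation list, and F2r (0.751). For Tgfb1 they were Wnk1 (0.881) and Fli1 (0.873), for Tgfb2 Klhl29 (0.820) and Twsg1 (0.816), and for Tgfb3 Igfbp5 (0.783) and Cald1 (0.775). For Tgfbr1 they were Kidins220 (0.884) and Pi4ka (0.875), for Tgfbr3 Mir100hg (0.884) and Ccn1 (0.871), and for Smad7 Elf1 (0.840) and Plcg1 (0.823).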

How the data were processed

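Full-thickness dorsal skin was profiled by droplet 3′ single-cell RNA-seq. The authors deposited raw UMI counts for each cell, which Cell Ranger produced against mm10 (version 6.1.2 in the submitters' processing notes, 7.0.0 in the file headers). Whether intronic reads were counted was not given in the sources used here, and intronic counting would raise long genes such as Ltbp1. Deposited depth was 165337289, 133972374 and 131570327 UMIs in CON, UV and Rux.

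Cells with fewer than 200 genes or over 10% mitochondrial UMIs were dropped, and the highest Scrublet scores (scanpy 1.11.5, 0.8% per 1000 cells) were removed as doublets. Seurat 5.3.0 clustered the cells on 2000 variable genes, from which the members were removed, and 30 components at resolution 1.5. A cluster was named when the markers of a lineage led by at least 1.5 log2 units, a limit set after the clusters were seen. UMIs were summed per class, and log2 ratios added 0.5 UMI to each sum. Intervals were exact Poisson, Clopper-Pearson or conditional binomial, and were tested on simulated data. They cover counting error only. Members, lists and markers were chosen with earlier results of these data known. Genes named were the members, list genes past 1.5-fold in FB-like cells in either comparison, Smad proteins, co-receptors, the 2 genes most like each member, and leading or marker genes of clusters. Gene positions are from GENCODE M21 (GRCm38). Alternatives changed the cell filter, doublets, resolution, scaling, cell weights, composition and minimum. A gene of the target list is not reported here by name, though it enters the counts and medians of that list.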

Additional observations from a re-analysis of the deposited data

How the results depend on the processing

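No paired analysis was possible because each condition had 1 library. The count of members past 1.5-fold in FB-like cells in UV over CON went from 2 to 0 with subclusters weighted as in CON, to 0 with subclusters of at least 50 cells in both libraries weighted as in CON, and to 1 at 2-fold. In Rux over UV that count was 1 under all alternatives run, but with subclusters weighted as in CON, where 12 Rux cells carry 31.5% of the weight, the gene was Tgfb3 in place of Tgfb1. With subclusters of at least 50 cells weighted as in UV it was Tgfb1 (0.70). In the other classes the 20 of UV over CON became 7 at 2-fold. At 1.5-fold that count ran from 15 under the strict filter on cells to 27 at a minimum of 10 UMIs. The 6 of Rux over UV became 3 at resolution 0.8, 2 under the strict filter on cells, 12 at a minimum of 10 UMIs and 1 at 2-fold. The number tested and the share of all genes past the fold are not given for these settings, so these counts have no background beside them.

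The median of the target list in FB-like cells was −0.06 in UV over CON and became −0.11 without doublet removal, 0.00 under the strict filter, 0.04 with median-of-ratios scaling, 0.02 with equal weight per cell, 0.31 with subclusters weighted as in CON and 0.30 with subclusters of at least 50 cells, and −0.02 with the low-UMI unnamed cluster led by Gdf10 added. In Rux over UV it was 0.40 and became 0.31 under the strict filter, 0.44 with median-of-ratios scaling, 0.20 with equal weight per cell, −0.18 and −0.05 with the same subcluster weightings, and 0.37 with that low-UMI cluster added. Tgfb1 over all retained cells became 0.05 in UV over CON with classes weighted as in CON, and 0.32 and 0.30 in Rux over UV with median-of-ratios scaling and equal weight per cell.

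Of 143 single ratios, 29 of them past 1.5-fold, equal weight per cell lost 4 and added 9, median-of-ratios scaling lost 0 and added 1, and totals without haemoglobin, keratin and mitochondrial genes changed 0. At resolution 0.8 only 127 ratios could be compared, 21 of them past the fold, with 0 lost and 2 added. Under the strict filter 105 could, 18 of them past the fold, with 1 lost and 3 added. Among the ratios compared, more were thus added than lost at these 2 settings. The lower counts there come from ratios without a counterpart. KB-like cells formed no class at resolution 0.8 or without doublet removal, so their values have no check there. The subcluster weighting over at least 50 cells, the added low-UMI cluster and the LYM-like cells without the Trdc cluster were chosen after seeing the data. Depth limits SCH-like cells most, with sums of 359213 to 566413 UMIs.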
